A study of Mus musculus with 6 samples.

Results

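The 10 genes described here, all of glucose uptake and glycolysis, were followed through 6 mouse stem cell libraries: the glucose transporter genes Slc2a1 and Slc2a3, the hexokinase genes Hk1 and Hk2, the phosphofructokinase genes Pfkl and Pfkp, and Gpi1, Pgk1, Pkm2 and Ldha. They were chosen by name, as 10 of the 22558 gene names in each of the 3 deposited tables, and all 10 were found and measured in every library. Each table set 2 libraries side by side. The first held embryonic stem cells (ESC) of strain 129Sv, a knockout of the histone variant gene H2A.X made with Cre recombinase (H2A.X KO) and a Flox/Flox line. The other 2 held induced pluripotent stem cells (iPSC) of mixed 129Sv/C57 background, derived from peritoneal fibroblasts (PF) or from tail tip fibroblasts (TTF), with one line labelled 4N+ and one labelled 4N- from each source. The labels do not define 4N+ and 4N-, and give no genotype at H2A.X for the iPSC lines. All 6 lines were at passage 25, had grown on feeder cells with LIF and were moved to gelatin-coated plates shortly before RNA extraction. Each condition was 1 library of 1 line, so a ratio within a table has no replicate check and a difference between conditions cannot be told apart from a difference between 2 lines.

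Glycolysis splits glucose into pyruvate in the cytosol and yields ATP, and lactate dehydrogenase then turns pyruvate into lactate and regenerates the NAD+ that the pathway needs. Glucose enters through transporters of the SLC2A family, hexokinases trap it in the cell as glucose 6-phosphate, and phosphofructokinase makes the committed step. Mouse pluripotent stem cells are known to run a high glycolytic flux, and several of these genes are known targets of hypoxia-inducible factor (HIF) and of Myc, which bind the DNA cores ACGTG or GCGTG and CACGTG respectively.

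The targeted gene, H2afx, which encodes H2A.X, stood at 6.18 FPKM (fragments per kilobase of transcript, scaled to the mapped fragments of a library) in the H2A.X KO library, at 34.9 FPKM in the Flox/Flox library and at 65.3 to 75.2 FPKM in the 4 iPSC libraries. Depth was estimated from the steps between low FPKM values and came to 39060000 to 61180000 effective fragments per library. Each value of the 10 genes then rested on 1160 to 75100 fragments at its coding length, and the 95% counting interval of a log2 ratio was 0.015 to 0.109 wide on either side. Those intervals cover counting error alone. Markers of other cells differed between libraries. The knockout exceeded its partner by 2-fold or more for 9 of 11 measured trophoblast markers, beside 7.49% of all measured genes. Of these 9, 4 were at 1 FPKM or more in the knockout alone and so had to be higher there. Eomes (1.787 against 2.651 FPKM) and Ascl2 (1.655 against 1.809 FPKM) were lower in the knockout. The trophoblast markers summed to 1377 against 62.2 FPKM, although Cdx2, Elf5 and Tpbpa were each below 1 FPKM in both ESC libraries. All 10 pluripotency markers were lower in the knockout, beside 51.7% of all measured genes (9 of 10 beside 38.2% after centring, which is defined below). Their sum was 1465 against 2694 FPKM, but Nanog was nearly level at 111.2 against 111.3 FPKM. Extraembryonic endoderm markers summed to 327 against 67.6 FPKM, of which Sparc alone was 246.8 against 60.2 FPKM. Only 5 of those 12 markers were measured. All 5 were higher in the knockout, 4 of them by 2-fold or more, beside 7.49% of all measured genes, and 1 of the 5 was at 1 FPKM or more in the knockout alone. Gata6, Sox17, Foxa2, Sox7, Afp, Ttr and Amn were each below 1 FPKM in both ESC libraries. Fibroblast markers summed to 192 against 90.7 FPKM, of which Fn1 was 115.7 against 79.8 FPKM and Tagln 62.3 against 7.36 FPKM. All 6 measured fibroblast markers were higher in the knockout, 5 of them by 2-fold or more, beside the same 7.49% of all. Of these 6, 3 were at 1 FPKM or more in the knockout alone. Col1a1, Col1a2, Col3a1, Dcn and Postn were each below 1 FPKM in both ESC libraries. In the PF pair all 10 measured fibroblast markers were lower in the 4N- line, beside 68.1% of all measured genes. Their sums were 95.6 against 183 FPKM (6 of the 10 were at 1 FPKM or more in the 4N+ line alone), and the fibroblast marker Lum was listed at 0 in all 6 libraries. In the TTF pair 2 of 4 measured fibroblast markers were higher and 2 lower, with sums of 91.8 and 113 FPKM. Trophoblast markers were higher in the 4N- TTF line in 7 of 9 measured cases, beside 50.1% of all measured genes, with sums of 96.8 against 69.0 FPKM. Extraembryonic endoderm markers were higher there in 4 of 5, beside the same 50.1% of all, with sums of 97.0 against 96.6 FPKM. The part of these other cells in the values below was not tested, and in bulk RNA fewer cells of a type cannot be told apart from less RNA per cell.

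The bases before the transcription start are shown for Slc2a1, the 2 annotated starts of Hk1, Hk2 and the first start of Ldha, because the hexokinase pair and Slc2a1 gave the widest ratios in the ESC table and Ldha alone held the palindrome CACGTG. Each line gives the 250 bases before a start from RefSeq on GRCm38.p6, which is not the build of the deposited tables, written 5′ to 3′ on the gene's strand. Capitals mark every ACGTG or GCGTG, on either strand, and neighbouring matches may share letters.
Slc2a1 (chr4:119108495-119108744, plus strand): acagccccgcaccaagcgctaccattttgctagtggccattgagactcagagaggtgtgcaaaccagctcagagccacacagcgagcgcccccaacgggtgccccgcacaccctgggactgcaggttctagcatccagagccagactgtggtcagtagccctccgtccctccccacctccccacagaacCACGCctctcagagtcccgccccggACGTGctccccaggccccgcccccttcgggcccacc
Hk1 start 1 (chr10:62379909-62380158, minus strand): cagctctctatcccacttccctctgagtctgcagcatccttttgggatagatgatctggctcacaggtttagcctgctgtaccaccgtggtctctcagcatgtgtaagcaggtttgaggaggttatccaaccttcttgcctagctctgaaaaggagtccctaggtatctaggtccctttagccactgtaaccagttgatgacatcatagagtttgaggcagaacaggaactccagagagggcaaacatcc
Hk1 start 2 (chr10:62340422-62340671, minus strand): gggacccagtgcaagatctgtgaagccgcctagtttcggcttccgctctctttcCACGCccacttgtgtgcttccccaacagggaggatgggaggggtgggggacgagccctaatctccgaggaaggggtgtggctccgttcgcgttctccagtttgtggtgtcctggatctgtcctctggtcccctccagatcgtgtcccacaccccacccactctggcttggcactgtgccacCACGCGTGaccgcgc
Hk2 (chr6:82774455-82774704, minus strand): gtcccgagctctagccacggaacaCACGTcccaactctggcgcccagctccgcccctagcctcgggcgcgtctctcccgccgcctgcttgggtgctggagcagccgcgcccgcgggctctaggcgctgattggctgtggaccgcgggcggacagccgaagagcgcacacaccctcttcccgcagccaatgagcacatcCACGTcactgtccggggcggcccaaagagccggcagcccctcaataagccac
Ldha start 1 (chr7:46845554-46845803, plus strand): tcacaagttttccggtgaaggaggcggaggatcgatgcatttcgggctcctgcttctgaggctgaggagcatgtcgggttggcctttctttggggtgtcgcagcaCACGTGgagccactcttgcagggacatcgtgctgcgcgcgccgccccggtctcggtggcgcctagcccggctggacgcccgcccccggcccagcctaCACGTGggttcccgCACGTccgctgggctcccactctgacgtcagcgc

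Promoters were found for 9 of the 10 genes, at 12 starts, and Slc2a3 had no entry. ACGTG stood at 5 of the 12 starts, one each of Slc2a1, Hk2, Pgk1, Pkm2 and Ldha, and in 16.6% of all 32851 RefSeq mouse promoter windows of that length. ACGTG or GCGTG stood at 9 of 12 starts, against 38.6% of all windows. CACGTG, a subset of the ACGTG matches that is counted on both strands, was present at 1 start (Ldha) and in 6.02% of windows. The first start of Hk1 held neither core and was 49.6% G or C, while its second start held 3 GCGTG and no ACGTG and the Hk2 window held 2 ACGTG and no GCGTG at 69.6% G or C. The tables give no level per start, so Hk1 reads were not assigned to one. Matches of this kind describe letters in a window and show no binding.

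**Figure D1:**
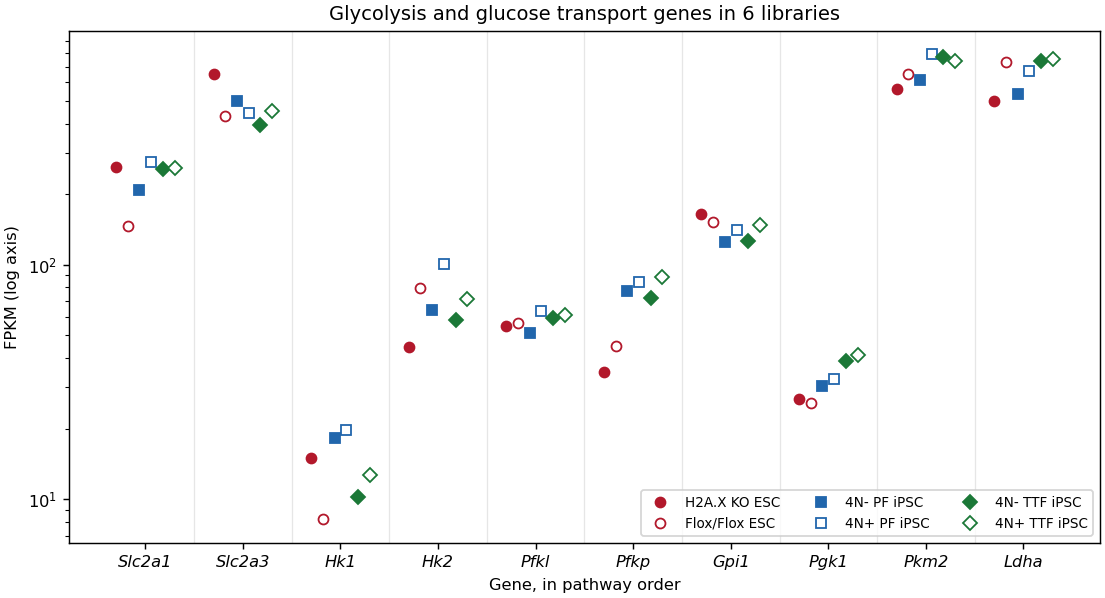
FPKM on a log axis (vertical) for the 10 genes in pathway order (horizontal), 1 point per library, filled for H2A.X KO or 4N- and open for Flox/Flox or 4N+. Levels run from 8.19 FPKM for Hk1 to 788 FPKM for Pkm2, and Hk1 is the lowest gene in all 6 libraries.

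Pkm2, Ldha and Slc2a3 had the 3 highest FPKM of the 10 genes in all 6 libraries, in an order that changed between libraries. Ldha led in the Flox/Flox ESC and the 4N+ TTF line, Pkm2 in the 4N- and 4N+ PF lines and the 4N- TTF line, and Slc2a3 in the H2A.X KO. Slc2a1 and Gpi1 ranked 4 and 5, with Gpi1 above Slc2a1 in the Flox/Flox ESC only among the 6 libraries. Below them came Hk2, Pfkl and Pfkp, then Pgk1 at rank 9 and Hk1 at rank 10 in every library. The summed FPKM of the 10 genes was 2310 in the H2A.X KO and 2325 in the Flox/Flox ESC, 2217 (4N-) and 2619 (4N+) in the PF pair, and 2524 (4N-) and 2630 (4N+) in the TTF pair. These sums were 0.684% to 0.875% of all FPKM of a library, with the highest share in the H2A.X KO.

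Slc2a1 encodes GLUT1, the widely expressed basal glucose transporter, and lies at chr4:118781349-118809934 on mm9. It stood at 260.2 FPKM in the H2A.X KO and 146 FPKM in the Flox/Flox ESC, at 208 (4N-) and 275.5 FPKM (4N+) in the PF pair, and at 255 (4N-) and 259 FPKM (4N+) in the TTF pair. The Flox/Flox library was the lowest of the 6, across tables whose scaling to each other is not given. The 2 TTF libraries were nearly level, with a counting interval of -0.05 to 0.01 for their log2 ratio. The ratio was computed as log2(FPKM + 1) in the H2A.X KO or 4N- library minus the same in its partner, and Slc2a1 had 0.82 in the ESC table, -0.41 in the PF table and -0.02 in the TTF table. On this scale Slc2a1 had the widest ESC ratio of the 10 genes. As a plain ratio of FPKM, Slc2a1 was 1.78-fold higher in the knockout and Hk1, at a lower level, 1.83-fold.

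Slc2a3 (chr6:122677826-122692763) encodes GLUT3, a transporter with a high affinity for glucose. It stood at 650.2 FPKM in the H2A.X KO and 431 FPKM in the Flox/Flox ESC, at 497 (4N-) and 444 FPKM (4N+) in the PF pair, and at 395 (4N-) and 453.5 FPKM (4N+) in the TTF pair. The log2 ratios were 0.59, 0.16 and -0.20 in that order, so the 4N- line was the higher one in the PF pair and the lower one in the TTF pair. Since FPKM is per length, the share of one gene in the sum of a pair does not depend on the scaling between libraries. Slc2a1 made up 28.6% of the 2 transporters' FPKM in the H2A.X KO and 25.4% in the Flox/Flox ESC, 29.5% (4N-) and 38.3% (4N+) in the PF pair, and 39.2% (4N-) and 36.3% (4N+) in the TTF pair. Slc2a2, the transporter gene of liver and pancreatic beta cells, was below 1 FPKM in every library, and the insulin-responsive Slc2a4 was at 0.64 to 2.32 FPKM.

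Hexokinases showed opposite ratios for the 2 members in the ESC table. Hk1 (chr10:61731602-61842656), the ubiquitous mitochondrial hexokinase, stood at 15.0 FPKM in the H2A.X KO and 8.19 FPKM in the Flox/Flox ESC, at 18.3 (4N-) and 19.7 FPKM (4N+) in the PF pair, and at 10.2 (4N-) and 12.6 FPKM (4N+) in the TTF pair. Its ratios were 0.80, -0.10 and -0.28. Hk2 (chr6:82675020-82724448), the inducible isoform of muscle, fat and many proliferating cells, stood at 44.7 FPKM in the H2A.X KO and 79.4 FPKM in the Flox/Flox ESC, at 63.9 (4N-) and 101 FPKM (4N+) in the PF pair, and at 58.1 (4N-) and 71.1 FPKM (4N+) in the TTF pair. Hk2 was thus lower in the knockout and in both 4N- lines than in their partners, with ratios of -0.81, -0.66 and -0.29. It was the only one of the 10 genes with an unadjusted p below 0.05 in the authors' deposited tables, at 0.0351 in the PF table and 0.0329 in the TTF table, with q values of 0.811 and 0.97 in the authors' deposited tables.

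Within a library, Hk1 made up 25.1% of the hexokinase pair's FPKM in the H2A.X KO and 9.36% in the Flox/Flox ESC, where Hk2 exceeded Hk1 by 2.98-fold and 9.69-fold. The share was 22.3% (4N-) and 16.3% (4N+) in the PF pair and 15.0% (4N-) and 15.1% (4N+) in the TTF pair. The Flox/Flox ESC had the lowest Hk1 share and the H2A.X KO the highest of the 6 libraries. Hk3 and Hkdc1, which encode further hexokinases, were each below 1 FPKM in all 6 libraries.

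**Figure D2:**
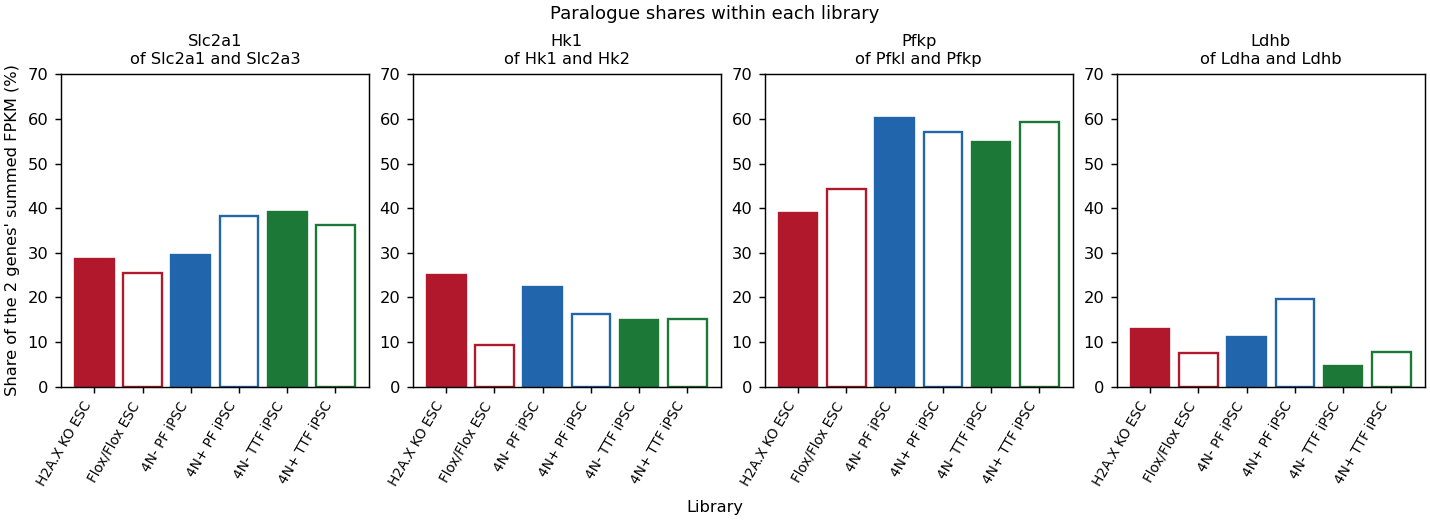
Share (percent, from 0) of one gene in the summed FPKM of a gene pair, for 4 pairs (panels) in each of the 6 libraries (bars, filled for H2A.X KO or 4N-, open for Flox/Flox or 4N+). Hk1 has its highest share, 25.1%, in the H2A.X KO and its lowest, 9.36%, in the Flox/Flox ESC, and the Pfkp share is below 45% in the ESC and above 54% in all 4 iPSC libraries.

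Phosphofructokinase subunits form mixed tetramers. Pfkl (chr10:77449693-77472541), the liver-type subunit, stood at 54.6 FPKM in the H2A.X KO and 56.4 FPKM in the Flox/Flox ESC, at 51.1 (4N-) and 63.2 FPKM (4N+) in the PF pair, and at 59.5 (4N-) and 60.8 FPKM (4N+) in the TTF pair. It varied least of the 10 genes, its highest library being 1.24-fold above its lowest, and its counting intervals reached 0 in the ESC and TTF tables. Pfkp (chr13:6547402-6647970), the platelet-type subunit, varied most, 2.56-fold. Both ranges run across tables whose scaling to each other is not given. The Pfkp values follow. Pfkp stood at 34.7 FPKM in the H2A.X KO and 45.0 FPKM in the Flox/Flox ESC, at 77.35 (4N-) and 84.45 FPKM (4N+) in the PF pair, and at 72.2 (4N-) and 88.85 FPKM (4N+) in the TTF pair. All 4 iPSC libraries lay above both ESC libraries, which came from another table and another strain background. As a share of the 2 subunits, Pfkp was 38.9% in the H2A.X KO and 44.4% in the Flox/Flox ESC against 54.8% to 60.2% in the iPSC libraries. Counting the muscle-type subunit Pfkm (11.9 to 17.6 FPKM) as well, those shares were 32.8% and 37.8% against 50.2% to 55.0%.

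Gpi1 (chr7:34986345-35015324) encodes glucose-6-phosphate isomerase, the enzyme between hexokinase and phosphofructokinase. It stood at 165 FPKM in the H2A.X KO and 152 FPKM in the Flox/Flox ESC, at 125 (4N-) and 141 FPKM (4N+) in the PF pair, and at 127 (4N-) and 147 FPKM (4N+) in the TTF pair. Both 4N- lines were the lower ones of their pairs, by a log2 ratio of -0.18 and -0.22. Pgk1 (chrX:103382462-103399038), the kinase that makes ATP after the triose step, stood at 26.7 and 25.7 FPKM in the H2A.X KO and Flox/Flox ESC, at 30.5 (4N-) and 32.6 FPKM (4N+) in the PF pair, and at 38.9 (4N-) and 41.1 FPKM (4N+) in the TTF pair. Its ratios were 0.05, -0.09 and -0.08, none as wide as the widest ratio of any other of the 10, and the counting interval of the ESC and PF ratios reached 0.

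Pkm2 (chr9:59504414-59527182) is the pyruvate kinase row. The table has 1 row for the gene, so its value says nothing on which splice form was made. It stood at 561 FPKM in the H2A.X KO and 651 FPKM in the Flox/Flox ESC, at 613 (4N-) and 788 FPKM (4N+) in the PF pair, and at 770.1 (4N-) and 741 FPKM (4N+) in the TTF pair. The 4N- line was the lower one in the PF pair, with a log2 ratio of -0.36, and the higher one in the TTF pair, at 0.05. Pklr, the liver and red cell pyruvate kinase gene, was below 1 FPKM in all 6 libraries.

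Ldha (chr7:54101173-54110997) encodes the lactate dehydrogenase subunit that favours lactate formation. Its level was 498 FPKM in the H2A.X KO and 730.2 FPKM in the Flox/Flox ESC, 534 (4N-) and 669.5 FPKM (4N+) in the PF pair, and 739 (4N-) and 755 FPKM (4N+) in the TTF pair. The 2 TTF libraries were within 1.02-fold of each other, while the other pairs had ratios of -0.55 and -0.32. Ldhb, the partner subunit of the heart isoenzyme and not one of the 10, stood at 74.0 FPKM in the H2A.X KO and 58.8 FPKM in the Flox/Flox ESC, at 67.3 (4N-) and 164 FPKM (4N+) in the PF pair, and at 35.9 (4N-) and 63.5 FPKM (4N+) in the TTF pair. Both 4N- lines had the lower Ldhb, with log2 ratios of -1.28 and -0.81, and the authors' deposited tables called it in both pairs, with q values of 0.00225 and 0.00405. Ldhb was 11.2% (4N-) and 19.7% (4N+) of the 2 subunits' FPKM in the PF pair, 4.63% (4N-) and 7.76% (4N+) in the TTF pair, and 12.9% in the H2A.X KO against 7.45% in the Flox/Flox ESC.

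The first comparison was that of H2A.X KO with Flox/Flox ESC. The 10 genes were divided in it: Slc2a1, Slc2a3, Hk1, Gpi1 and Pgk1 were higher in the knockout and Hk2, Pfkl, Pfkp, Pkm2 and Ldha lower. The median log2 ratio was 0.005, beside -0.03 over all 12086 genes at 1 FPKM or more in at least 1 of the 2 libraries. Both transporters and Hk1, 3 of the 10, were at least 1.5-fold higher, where 17.8% of all measured genes were. Hk2 alone was at least 1.5-fold lower, as were 15.9% of all measured genes. None of the 10 reached 2-fold in either direction, against 11.2% of all. The genes that both libraries held at 5 FPKM or above had a median of -0.20. Centred on it, Slc2a1 and Hk1 were at 1.03 and 1.01, past 2-fold higher, as were 11.7% of all measured genes centred in that way. After centring 6 of the 10 were higher, beside 61.8% of all, and the median was 0.21. Pfkl changed sign with centring (-0.05 to 0.16), Pkm2 went to -0.01, and Hk2 (-0.61) and Ldha (-0.35) were still lower. The authors' deposited table called none of the 10 at q below 0.05, the lowest q being 0.757 for Hk1 in the authors' deposited table, and it called 1.44% of the 14589 genes it tested.

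**Figure D3:**
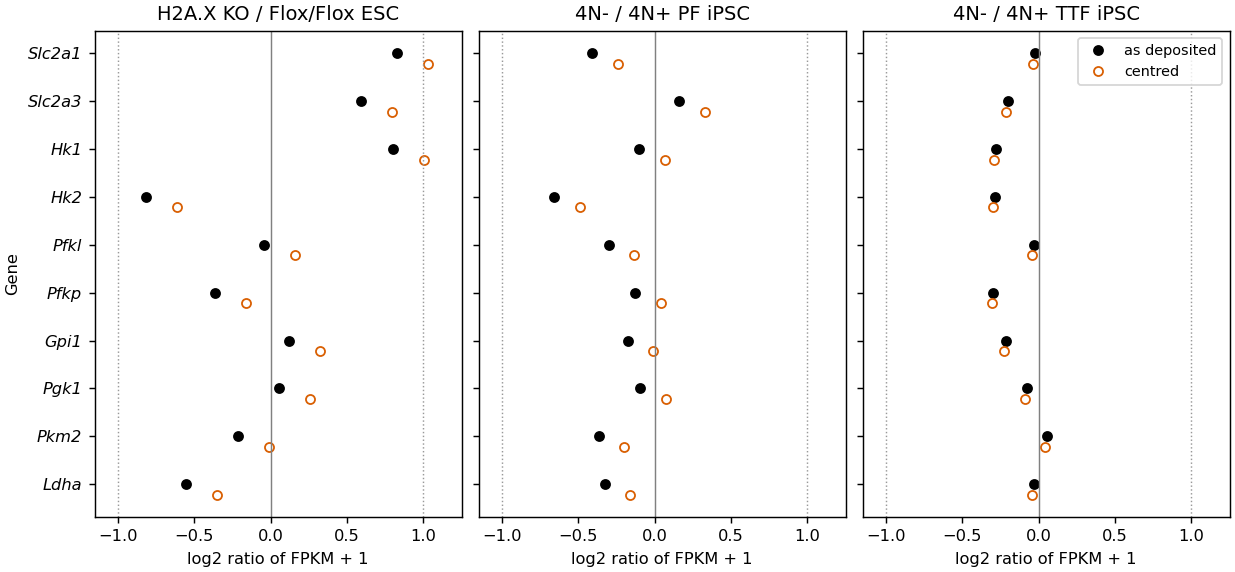
Log2 ratio of FPKM + 1 (horizontal) for the 10 genes (vertical) in the ESC table (H2A.X KO over Flox/Flox) and the PF and TTF iPSC tables (4N- over 4N+), filled as deposited and open after centring on the genes that both libraries held at 5 FPKM or above, 1 library per condition. Dotted lines mark 2-fold: Slc2a1 and Hk1 pass it in the ESC panel only after centring, at 1.03 and 1.01, and Hk2 is left of 0 in all 3 panels.

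The second comparison was that of 4N- with 4N+ iPSC. In the PF pair 9 of the 10 genes were lower in the 4N- line, beside 68.1% of all measured genes, and Slc2a3 was higher. The median log2 ratio was -0.24, beside -0.13 over 11606 measured genes and -0.17 over those that both held at 5 FPKM or above, and after centring 4 genes were higher and 6 lower with a median of -0.07. Hk2 was at least 1.5-fold lower, as were 4.85% of all measured genes, and none was 1.5-fold higher (1.98% of all) or past 2-fold (1.55% of all). The authors' deposited table called none of the 10 and 0.537% of the genes it tested. In the TTF pair 9 of 10 were lower in the 4N- line, beside 49.9% of all measured genes, and Pkm2 was higher. The median was -0.14 beside 0.00 over 11354 measured genes, and centring left 9 lower, beside 52.9% of all. None reached 1.5-fold, where 0.828% of all genes were 1.5-fold higher and 0.907% lower, nor 2-fold (0.749% of all), and the authors' deposited table called none of the 10 and 0.301% of all tested.

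Slc2a1, Hk1, Hk2, Pfkl, Pfkp, Gpi1, Pgk1 and Ldha, 8 of the 10, were lower in the 4N- line of both pairs, and 33.5% of 10975 genes measured in both were. After centring this number was 5 of 10, against 22.1% of the same 10975 genes. The 4 iPSC libraries were fitted together with limma on log2(FPKM + 1), with the parental cells as a block and 1 residual degree of freedom, and p-values were adjusted by the Benjamini-Hochberg method over 11985 genes. None of the 10 was called at an adjusted p below 0.05, whereas 14 genes, 0.117% of those tested, were called. Before adjustment 1 of the 10 (Hk2) was below 0.05, beside 446 of all 11985 genes. That count of 1 was also found with a pseudocount of 0.1, centred per pair or without the trend. It was 0 without the block, with no filter or at a minimum of 5 FPKM. By limma Hk2 differed by -0.47 (SE 0.21, adjusted p = 0.999), lower in the 4N- line of 2 of 2 pairs, and Ldhb by -1.04 (SE 0.22, adjusted p = 0.244), also in 2 of 2. Other differences ran from -0.21 for Slc2a1 (SE 0.24) to -0.02 for Slc2a3 (SE 0.25). The adjusted p of Ldhb depended on the genes tested: it was 0.0222 by limma over the 8182 genes at 5 FPKM or more and between 0.0835 and 1.0 in the other settings tried.

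Lists of neighbouring pathways put the 10 genes in context. Of 24 other glycolytic and glucose transporter genes found, 14 were measured in the ESC table. In the knockout 9 were higher, beside 48.3% of all measured genes, and 5 lower, with a median of 0.23. Centred, 11 were higher, beside 61.8% of all, and 3 lower, with a median of 0.43. Of those 14, 2 reached 1 FPKM in the knockout alone and 1 in the Flox/Flox ESC alone. Without centring, the median was 0.03 with no filter and turned to -0.04 at a minimum of 5 FPKM. Aldoa, the muscle-type aldolase, stood at 734 against 582 FPKM and the mutase gene Pgam1 at 13.9 against 23.5 FPKM. Of 12 measured in each iPSC pair, 8 (PF) and 9 (TTF) were lower in the 4N- line, with medians of -0.15 and -0.12. Among all measured genes 68.1% (PF) and 49.9% (TTF) were lower. Centred, the PF genes were 6 higher and 6 lower with a median of 0.02, and with no filter the medians were 0.01 (PF) and -0.03 (TTF). At a minimum of 5 FPKM the TTF median was -0.06. The enolase Eno3 stood at 10.2 against 15.8 FPKM in the PF pair, and the aldolase Aldoc at 18.3 against 26.2 FPKM in the TTF pair.

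For lactate transport and pyruvate entry, 11 of 15 genes had lower values in the knockout, beside 51.7% of all measured genes. Their median was -0.45, which centring took to -0.24. None passed 2-fold on the log2(FPKM + 1) scale. The monocarboxylate transporter genes divided: Slc16a1 (MCT1) stood at 23.9 against 43.4 FPKM and Slc16a3 (MCT4), the lactate exporter of glycolytic cells, at 38.4 against 23.4 FPKM, while their chaperone gene Bsg stood at 370.2 against 249 FPKM. Pdha1, the catalytic subunit gene of pyruvate dehydrogenase, stood at 63.5 against 127 FPKM, a ratio of -0.99 on that scale, and Pdk1, whose kinase inhibits that enzyme, at 41.6 against 79.2 FPKM. In the 4N- PF line Pdha1 was the higher one (151 against 92.9 FPKM) and Pdk1 the lower (43.3 against 75.8 FPKM). In both iPSC pairs 10 of 15 genes of this list were lower in the 4N- line, beside 68.1% (PF) and 49.9% (TTF) of all measured genes. The medians were -0.23 and -0.11, the first of which was -0.07 after centring and -0.13 with no filter. Centred, the PF genes of this list were 7 higher and 8 lower.

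Of 16 measured regulators of glycolysis, 5 were at least 2-fold lower in the knockout, as were 3.72% of all measured genes: Epas1 (3.04 against 10.5 FPKM), which encodes HIF-2α, Mycn (20.3 against 55.9 FPKM), Myc (3.14 against 7.61 FPKM), and the splicing factor genes Hnrnpa2b1 (269 against 586 FPKM) and Hnrnpa1 (15.3 against 33.8 FPKM), whose products act on the pyruvate kinase transcript. Myc and Hnrnpa1 were named in this comparison after their values were seen. After centring Hnrnpa2b1, Hnrnpa1 and Myc were at -0.91, -0.89 and -0.85, short of 2-fold, so 2 of 16 were 2-fold lower, beside 1.67% of all. Pfkfb3, which makes the phosphofructokinase activator fructose 2,6-bisphosphate, stood at 18.3 against 9.67 FPKM, and Txnip, an inhibitor of glucose uptake, at 254 against 142 FPKM. After centring these 2 genes were at 1.06 and 1.04, past 2-fold higher, as were 11.7% of all measured genes. In the iPSC pairs Myc went opposite ways, with 2.09 (4N-) and 5.74 FPKM (4N+) in the PF pair and 8.21 (4N-) and 4.57 FPKM (4N+) in the TTF pair.

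HIF target genes outside glycolysis were 6 higher and 11 lower in the knockout, beside 51.7% of all measured genes lower. Their median was -0.08, which centring turned to 0.12. Centred, 10 were higher and 7 lower, beside 61.8% of all higher. The collagen prolyl hydroxylase gene P4ha2 (28.5 against 10.6 FPKM) and the HIF prolyl hydroxylase gene Egln3 (23.1 against 64.6 FPKM) passed 2-fold in opposite directions. Of all measured genes 7.49% were 2-fold higher and 3.72% lower. After centring P4ha2 (1.55) and Egln3 (-1.24) were still past 2-fold, and Ndrg1 (1.12) was so too, beside 11.7% of all higher and 1.67% lower. In the PF pair the list was 6 higher and 11 lower (9 and 8 after centring), beside 68.1% of all measured genes lower (44.3% centred). In the TTF pair 5 were higher and 11 lower of 16 measured (4 and 12 after centring), beside 49.9% of all lower (52.9% centred). Pentose phosphate genes had ESC, PF and TTF medians of -0.13, -0.13 and 0.05, which centring turned to 0.07 and 0.04 in the ESC and PF pairs. With no filter the ESC median was -0.02. The knockout had G6pdx, the entry enzyme gene, at 20.2 FPKM against 38.6 FPKM in the Flox/Flox ESC. Of 20 tricarboxylic acid cycle genes, 16 were lower in the knockout, 18 were lower in the 4N- PF line and 14 were higher in the 4N- TTF line, with medians of -0.22, -0.30 and 0.05. Among all measured genes 51.7% were lower in the knockout, 68.1% were lower in the 4N- PF line and 50.1% were higher in the 4N- TTF line. After centring 11 of the 20 were lower in the knockout (median -0.01), 14 in the 4N- PF line (median -0.13) and 12 were higher in the 4N- TTF line (median 0.04). None of those 20 passed 2-fold in any pair.

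**Figure D4:**
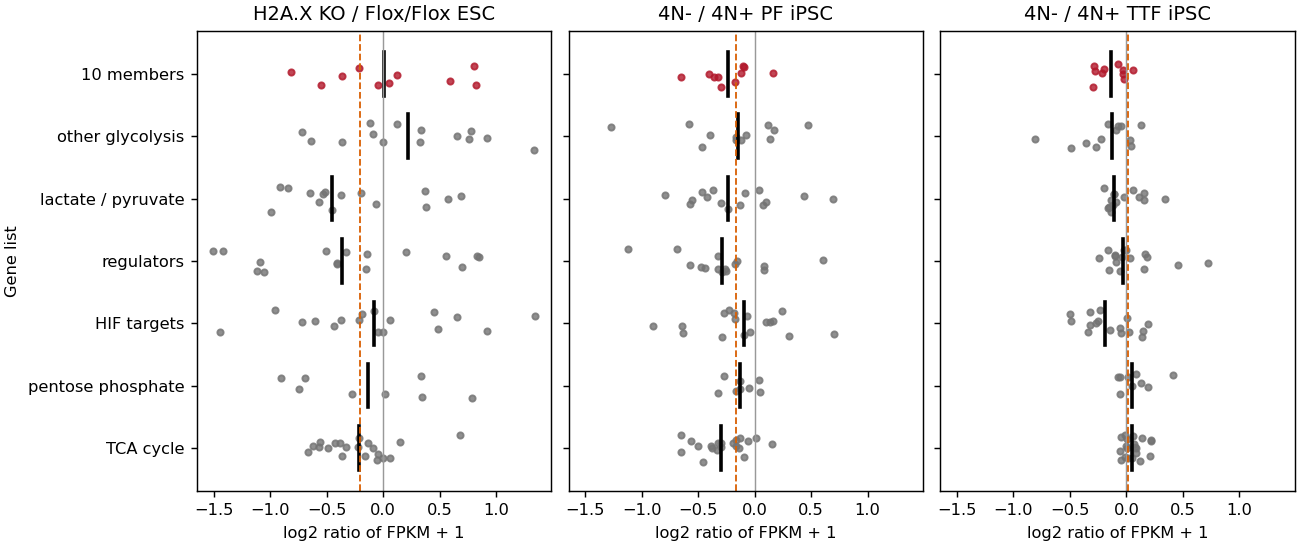
Log2 ratio of FPKM + 1 (horizontal) of each measured gene (points) in the 10 genes and 6 neighbouring lists (vertical) for the 3 pairs of libraries, with the list median as a black bar and the shift used for centring as a dashed line. The 10 genes spread from -0.81 to 0.82 in the ESC panel around a median of 0.005, and lie within -0.29 and 0.05 in the TTF panel.

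By distance over the 3 log2 ratios, the genes most like Slc2a1 among 6374 other genes at 5 FPKM or more in all 6 libraries were Pvrl2, Ndel1 and Flii. Their ESC, PF and TTF ratios were 0.79, -0.44 and 0.05 for Pvrl2, 0.74, -0.36 and -0.02 for Ndel1, and 0.82, -0.30 and -0.02 for Flii, at distances of 0.087, 0.098 and 0.109. Slc2a1 was taken for its ESC ratio on the log2(FPKM + 1) scale, and with a pseudocount of 0.1 Hk1 (0.87) lay above Slc2a1 (0.83).

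Several glycolytic rows were far below the level known for such enzymes. Gapdh was listed at 0.598 to 0.942 FPKM and the joint row of Eno1 and Gm5506 at 1.04 to 1.81 FPKM, next to 582 to 793 FPKM for Aldoa. Reference transcripts were compared with all annotated genes of the GENCODE set on GRCm38, and a match of at least 200 bases at 95% identity counted as near-identical. Gapdh had 75 pseudogenes with such a match, Eno1 had 2 and Aldoa none. Of the 10 genes, Pgk1 and Ldha had 4 each, Gpi1 and Pkm2 had 1 each, and Slc2a1, Slc2a3, Hk1, Hk2, Pfkl and Pfkp had none. Ldhb, Tpi1 and Pgam1 also had 1 each. With matches to annotated genes of any other type included, Gapdh had 77, Eno1 had 3 and Pkm2 had 2. How the authors assigned reads that match several places is not given in the sources used here, so levels of the genes with copies are uncertain to that extent and their rank among the 10 should be read with it.

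**Figure D5:**
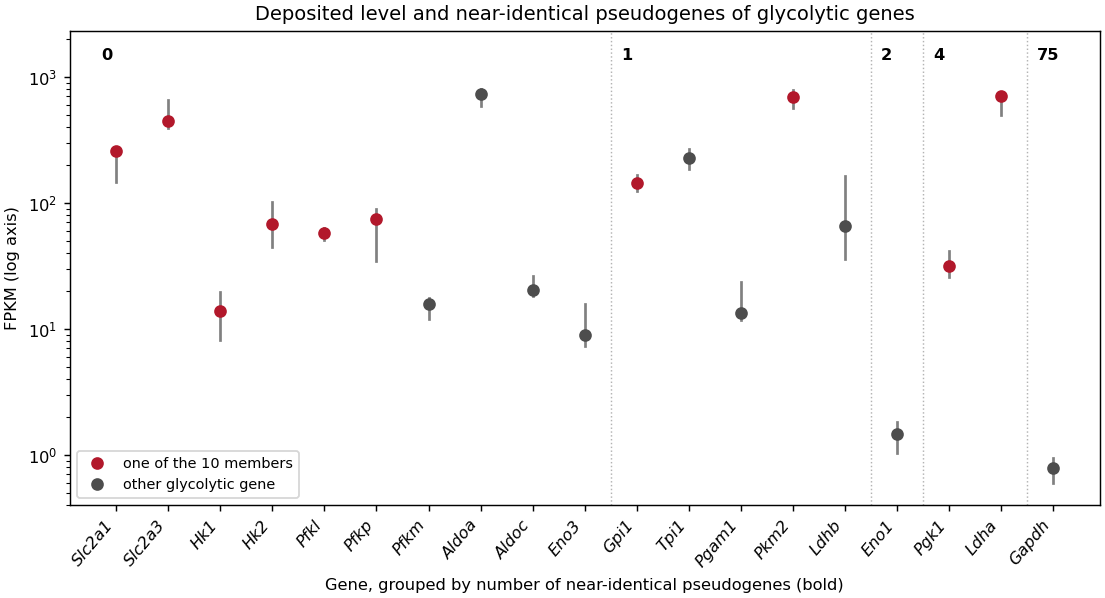
Median FPKM over 6 libraries on a log axis (points, with a line from the lowest to the highest library) for 19 glycolytic genes grouped by the number of near-identical pseudogenes (bold), red for the 10 genes described and grey for others. The 2 lowest rows are Gapdh, with 75 pseudogenes, and the Eno1 row, with 2, while Ldha with 4 and Pkm2 with 1 are among the highest.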

How the data were processed

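Polyadenylated RNA of 6 mouse lines (TruSeq, from Trizol total RNA, per the labels' protocols) was given by the authors as 3 gene tables of FPKM values, 2 libraries each, with a p-value and q-value of the authors' own comparison in the deposited tables. Per the submitters' processing notes, CASAVA, TopHat2 and mm9 were used. Not given in the sources used here are versions, quantifier, annotation, strand use and any scaling between libraries. Genes at 1 FPKM or more in at least 1 library of a pair counted as measured. Ratios were log2(FPKM + 1) differences within a table, which understate changes of low genes. With 1 library per condition a pair had no test. For the 4 iPSC libraries limma 3.58.1 was used (R 4.3.3; trend, parental cells as a block), tested on simulated data, and p-values were adjusted by Benjamini-Hochberg over all genes tested. Nothing in the labels says that the lines came from separate animals. With the block, the limma p-value rests on how far a gene's PF and TTF ratios disagree, moderated over genes. That disagreement may be technical or come from the lines or their source, which cannot be told apart here. The block stands for the shared parental cell type and table, so the pairing comes from the labels. Alternatives changed the pseudocount (0.1), the filter (none or 5 FPKM), the centring, the threshold (1.5-fold), the trend and the block, or left out a library. Depth came from the smallest steps of FPKM in intronless receptor genes, whose values were whole multiples within 0.05 in 100% of cases. Near-identical copies were found with blastn 2.17.0. The members, pathway lists and marker lists were chosen with earlier results of these data known. Text names the 10 members and their paralogues, up to 3 genes per list, comparison and direction with the widest ratio at 5 FPKM or more, the markers with the highest FPKM, and the 3 genes most like the member with the widest ESC ratio of log2(FPKM + 1).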

Additional observations from a re-analysis of the deposited data

Results flagged for a closer look

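Slc2a3 and Pkm2 had opposite directions in the 2 iPSC pairs, with 1 library per label in each, and the differences were not tested. The 4N- against 4N+ log2 ratio of Slc2a3 was 0.16 in the PF pair and -0.20 in the TTF pair, a difference of 0.36. That of Pkm2 was -0.36 in the PF pair and 0.05 in the TTF pair, a difference of -0.42.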

How the results depend on the processing

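Centring on the genes that both libraries held at 5 FPKM or above moved the median of the 10 genes from 0.005 to 0.208 in the ESC table and from -0.239 to -0.073 in the PF table, and put 2 genes instead of 0 past 2-fold higher in the knockout. A 1.5-fold threshold gave 3 higher and 1 lower in the ESC table and 1 lower in the PF table. Over all measured genes of the ESC table, 905 were 2-fold higher and 449 lower as deposited, 1412 and 202 after centring, 2154 and 1927 at 1.5-fold, 1586 and 635 with a pseudocount of 0.1, and 571 and 417 at a minimum of 5 FPKM. In the PF pair 67 and 113 became 91 and 87 after centring, 120 and 192 with a pseudocount of 0.1, and 230 and 563 at 1.5-fold. In the TTF pair 21 and 64 became 45 and 74 with a pseudocount of 0.1 and 94 and 103 at 1.5-fold. Limma called 0 of the 10 genes in all 11 settings run. Without the replicate block limma called 0 of the 10 genes and 3 genes in all, against 14 with it, and no difference moved, since the pairs are balanced (Hk2 -0.47, Ldhb -1.04). It called 17 genes with a pseudocount of 0.1, 67 at a minimum of 5 FPKM, 0 with no filter (1015 at an unadjusted p below 0.05), 13 centred and 12 without the trend. Centred per pair, Slc2a3 turned from -0.018 to 0.059. Each library was also left out in turn, fitted without the block because no residual degree of freedom is left with it. The lone library of a label was assumed to vary like the other label. Without the block such a difference also holds that between PF and TTF lines, so its range does not measure the label alone. Ranges were -0.58 to 0.20 for Hk1, although Hk1 was lower in the 4N- line of both pairs. They were -0.411 to 0.055 for Ldha, -0.255 to 0.085 for Pgk1, -0.319 to 0.011 for Pkm2 and -0.18 to 0.15 for Slc2a3. For Hk2 the range was -0.72 to -0.22, for Slc2a1 -0.36 to -0.07, for Pfkl -0.27 to -0.06 and for Ldhb -1.72 to -0.36. The limits are 1 library per condition, FPKM in place of counts, and 1 residual degree of freedom.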

Other observations

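Gm5506, a row singled out after its values were seen, has the same deposited mm9 coordinates as the joint row of Eno1 and Gm5506 (chr4:149611305-149622982), and its level differed by table. Both TTF libraries listed it high, at 11.6 FPKM (4N-) against 10.8 FPKM (4N+). The other 4 libraries had 0 to 0.0289 FPKM. The joint row of Eno1 and Gm5506 stayed at 1.04 to 1.81 FPKM in all 6.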
